A study of Mus musculus with 15 samples.

Results

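The response to NZM was compared between 2 kinds of mouse bone marrow cell, BMSC and bone marrow-derived macrophages (BMDM), using 12 of the 15 RNA libraries of the series. The BMSC arm held the group Aged, whose treatment label is H2HO, and the group Aged_NZM, labelled H2HO+NZM. The BMDM arm held the group LPS, treated with lipopolysaccharide, the endotoxin of Gram-negative bacteria, and the group LPS_NZM, which received LPS+NZM. Each group had 3 libraries, all of wild type mice, and none of these groups was without a pretreatment. The labels spell out neither NZM nor H2HO nor BMSC, give no dose, time, age or sex, and do not say whether replicates were separate cultures or animals, so that the p-values below measure the spread between libraries, which may be technical. Cell type and pretreatment changed together between the arms, so a difference between the 2 responses cannot be told apart from a difference between the pretreatments. The remaining 3 libraries, vehicle-treated BMDM, did not enter the comparison.

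Expression was read as log2(TPM + 1), TPM being transcript abundance scaled to a fixed library total, and the quantity compared was the change with NZM in BMSC minus the change with NZM in BMDM. Of 56979 gene identifiers, 16352 were tested, and 9155 of these had a mean of at least 5 TPM in at least 1 group of each cell type. All counts below are over these 9155 genes unless another number is given. Counts over function lists take the members that reached this level. A gene could enter through the group in which it was higher. The stricter set with at least 5 TPM in all 4 groups held 8035 genes, of which 7065 had a different response (1419 higher and 5646 lower in BMSC).

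Macrophages answer LPS through Toll-like receptor 4, which activates NF-kB and, by way of type I interferon, the JAK-STAT pathway, and they then release cytokines, chemokines and acute phase proteins. Marrow stromal cells are connective tissue cells that build collagen matrix, hold blood progenitors in place with the chemokine encoded by Cxcl12, and can also make acute phase proteins. Ribosome production in the nucleolus, DNA synthesis and stress pathways such as ATF4 and NRF2 work in both kinds of cell.

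The macrophage markers largely fitted the labels, whereas the summed level of the stromal markers hardly set BMSC apart from BMDM without NZM. In BMSC the pan-leukocyte gene Ptprc and the macrophage genes Adgre1, Tyrobp, C1qb and C1qc were at or near 0. Cd14 and Cd68 were not, averaging 94.2 and 24.9 TPM in Aged and 93.7 and 13 TPM in Aged_NZM, most of the macrophage marker sum there. Of 20 macrophage markers, 14 averaged under 1 TPM in Aged and 15 in Aged_NZM, and their summed level was 127 to 135 TPM in Aged and 109 to 121 TPM in Aged_NZM, against 35100 to 35300 TPM in LPS and 38100 to 38900 TPM in LPS_NZM. BMDM in turn carried transcripts of connective tissue: 20 stromal markers summed to 3180 to 3370 TPM in LPS and 3040 to 3170 TPM in LPS_NZM, beside 3430 to 3520 TPM in Aged and 7420 to 7470 TPM in Aged_NZM. Of these markers 15 averaged at least 5 TPM in LPS and 14 in LPS_NZM, beside 13 in Aged and 14 in Aged_NZM. Single stromal markers did differ, in both directions. Dcn averaged 1510 TPM in Aged and 103 TPM in LPS, and Pdgfra 91.4 and 6.72 TPM. Col1a1 averaged 309 TPM in Aged and 1040 TPM in LPS, and Postn 1.54 and 142 TPM. Neutrophil markers, 12 in number, summed to 2340 to 2580 TPM in LPS and 2140 to 2550 TPM in LPS_NZM. A change in BMDM can therefore not be assigned to macrophages alone for genes that these other cells express, and in such bulk libraries fewer cells of a type cannot be told apart from less RNA per cell. Mitochondrial transcripts took 1.4 to 1.47% of the total in Aged and 3.94 to 4.25% in Aged_NZM, and 2.92 to 3.09% in LPS and 3.71 to 3.82% in LPS_NZM. TPM values carry no read depth, and libraries within a group lay close together, with a median standard deviation of 0.0635 on the log2 scale in BMSC and 0.07 in BMDM.

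Among genes called in both cell types, those that NZM moved in opposite directions outnumbered those that it moved in the same direction, on the deposited scale and after median centring. In BMSC 1884 genes rose (20.6%) and 5155 fell (56.3%), whereas in BMDM 6565 rose (71.7%) and 1574 fell (17.2%), each by limma at an adjusted p under 0.05. The response differed between the cell types for 8064 genes, being higher in BMSC for 1577 (17.2%) and lower in BMSC for 6487 (70.9%). Among genes called in both cell types, 1186 rose in both (13%), 778 fell in both (8.5%), 472 rose in BMSC and fell in BMDM (5.16%), and 3887 fell in BMSC and rose in BMDM (42.5%). Across the 9155 genes the changes in BMSC and BMDM had a Pearson r of -0.14 and a Spearman rho of -0.16, a description across genes, which are not independent replicates.

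The size of this split depended on the scale, since TPM makes every library sum to the same total. The median gene changed by -0.23 in BMSC and by 0.49 in BMDM, a median difference of -0.69. After each library was centred on the median of its tested genes, 2686 genes rose (29.3%) and 3951 fell (43.2%) in BMSC, 3546 rose (38.7%) and 3614 fell (39.5%) in BMDM, and the response was higher in BMSC for 3400 (37.1%) and lower for 3826 (41.8%). On that scale 843 genes rose in both, 1428 fell in both, 1307 rose in BMSC and fell in BMDM, and 1766 fell in BMSC and rose in BMDM. With quantile normalization 2791 rose and 3895 fell in BMSC, 4532 rose and 2722 fell in BMDM, and the response was higher in BMSC for 2843 and lower for 4447. Centring moved every change by 0.14 in BMSC and by -0.48 in BMDM, so a change whose direction turns is given below with its centred value.

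Changes of at least 2-fold in both cell types were few. In both cell types 35 genes rose (0.382%) and 22 fell (0.24%), 32 rose in BMSC and fell in BMDM (0.35%), and 146 fell in BMSC and rose in BMDM (1.59%). Of these, in the same order, 17, 13, 19 and 117 genes held at least 5 TPM in all 4 groups. The genes named from these sets were taken from those whose libraries with and without NZM did not overlap, so that their separation describes the choice. After centring these sets held 24, 30, 74 and 39 genes, and 18 of the shared rises, 17 of the shared falls and 32 and 39 of the opposite sets were members on both scales. Of the genes that rose at least 2-fold in BMSC, 12.5% also rose at least 2-fold in BMDM and 11.4% fell there, against 17.6% and 5.71% of all genes. Of those that fell at least 2-fold in BMSC, 39% rose at least 2-fold in BMDM and 5.88% fell there, the second near the share of all genes.

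**Figure D1:**
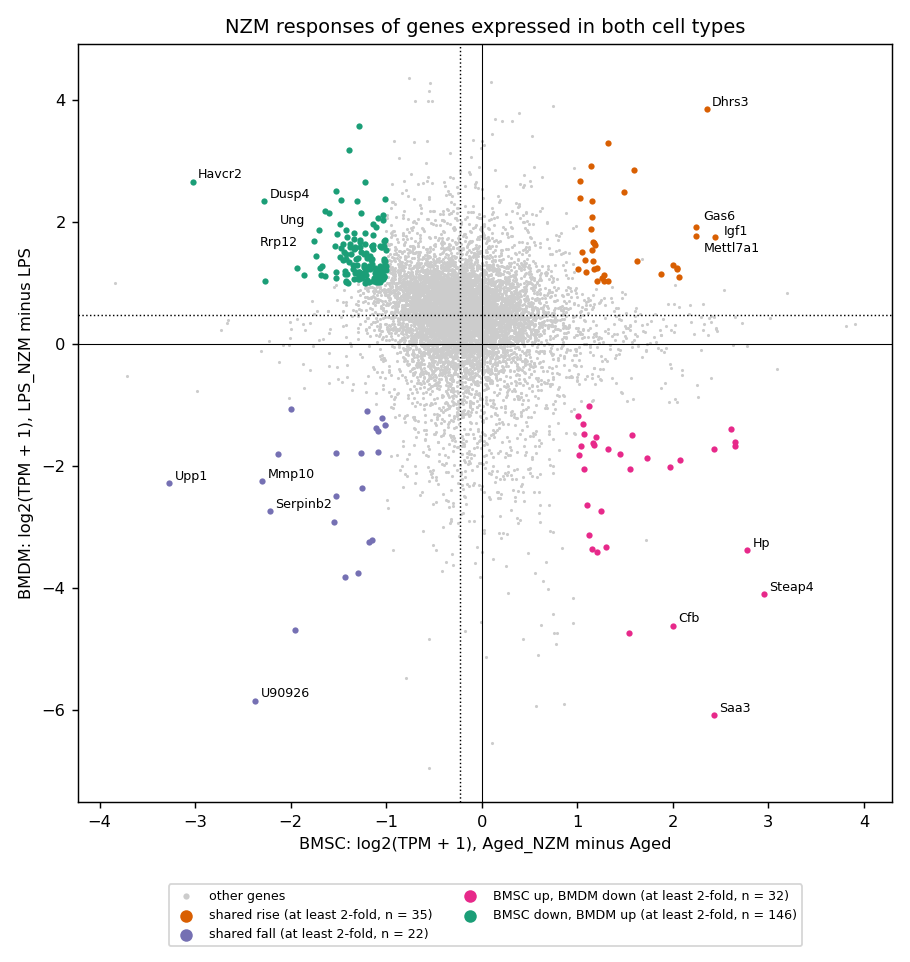
Change with NZM on the log2(TPM + 1) scale in BMSC (x axis, Aged_NZM minus Aged) against BMDM (y axis, LPS_NZM minus LPS), 1 point for each of 9155 genes; coloured points are the 4 sets of genes changed at least 2-fold in both cell types, and dotted lines mark the medians of -0.23 and 0.49. The opposite set at the upper left (146 genes) is the most numerous, and Saa3 and Steap4 lie farthest to the lower right.

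Grouping genes by function separated 3 patterns, shown in the plot of list medians. Complement, acute phase, interferon and NF-kB genes had a strongly negative median in BMDM and a positive or near-0 median in BMSC. Collagen and other matrix genes had high medians in BMSC and medians near 0 in BMDM as deposited. Ribosome biogenesis, DNA replication and repair genes had negative medians in BMSC and positive medians in BMDM. The list counts below stand beside these shares of all genes. In BMSC 20.6% rose and 56.3% fell, and in BMDM 71.7% rose and 17.2% fell. After centring these shares were 29.3%, 43.2%, 38.7% and 39.5%.

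**Figure D2:**
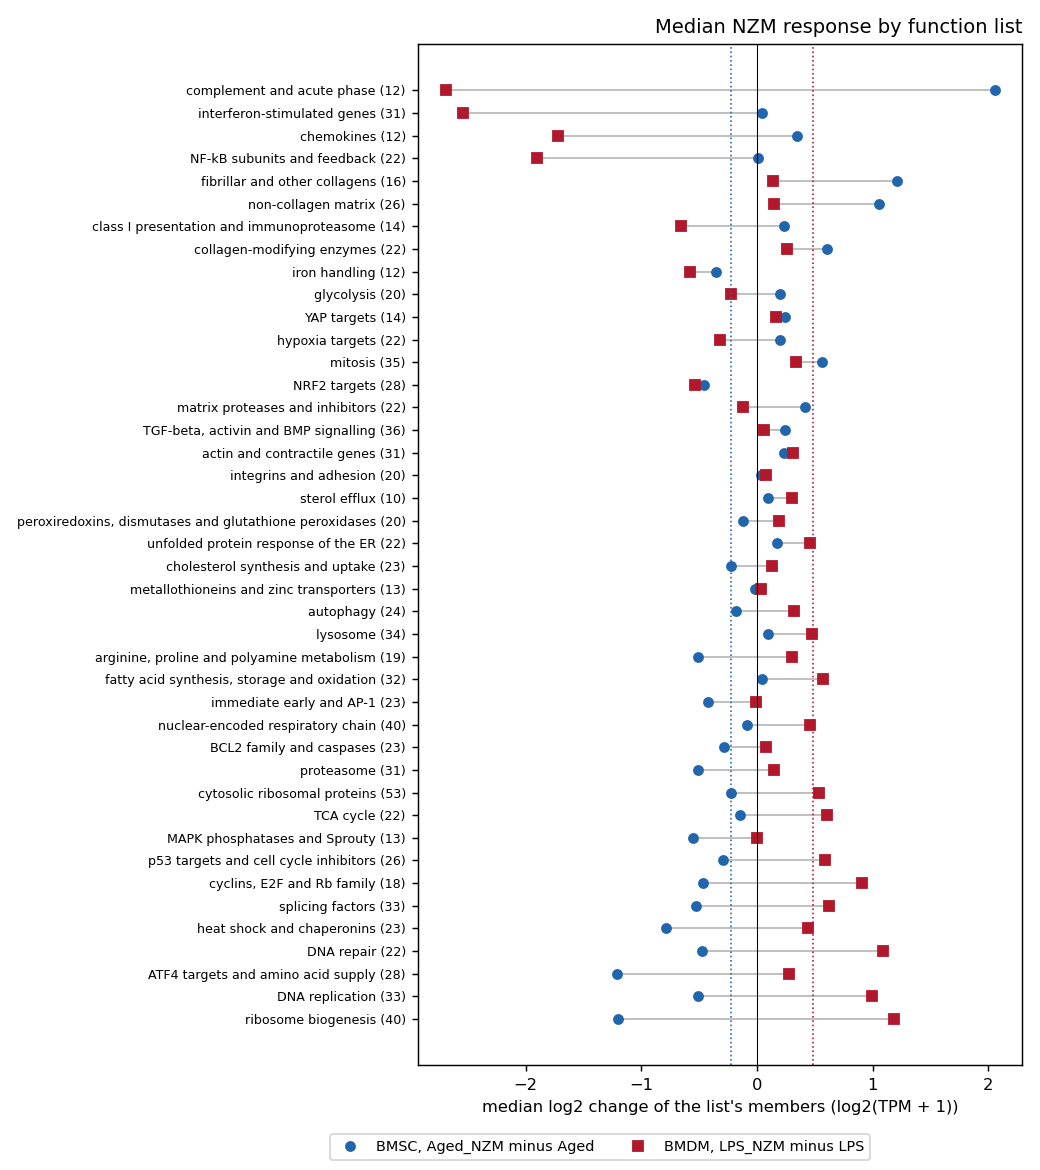
Median log2 change with NZM over the members of each function list in BMSC (blue circles) and BMDM (red squares), with the number of members expressed in both cell types in parentheses and dotted lines at the medians of all genes (-0.23 and 0.49). Complement and acute phase genes are farthest apart at the top (2.06 and -2.69) and ribosome biogenesis genes at the bottom (-1.20 and 1.18), while lists whose BMDM median lies between 0 and 0.48 have a negative BMDM median after centring.

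Acute phase and complement genes rose with NZM in BMSC and fell in BMDM. These are mostly secreted proteins of innate defence and iron or haem capture that liver, stromal cells and macrophages make after inflammatory signals. Of 23 genes on the list, 12 were expressed in both cell types, and all 12 rose in BMSC (median 2.06), while 11 fell in BMDM (median -2.69), on the deposited and the centred scale alike.

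The proximal promoters of the first 2 genes of each opposite set with a RefSeq entry are shown because these genes moved in contrary directions in the same comparison. Each runs from 250 bases before to 50 after the start site in GRCm38.p6, 5′ to 3′ on the gene's strand, and capitals mark matches to the motifs searched. Steap4 lies at chr5:7960222-7960521 (+ strand), Saa3 at chr7:46715627-46715926 (- strand), Havcr2 at chr11:46454681-46454980 (+ strand) and Ung at chr5:114130185-114130484 (+ strand).
Steap4: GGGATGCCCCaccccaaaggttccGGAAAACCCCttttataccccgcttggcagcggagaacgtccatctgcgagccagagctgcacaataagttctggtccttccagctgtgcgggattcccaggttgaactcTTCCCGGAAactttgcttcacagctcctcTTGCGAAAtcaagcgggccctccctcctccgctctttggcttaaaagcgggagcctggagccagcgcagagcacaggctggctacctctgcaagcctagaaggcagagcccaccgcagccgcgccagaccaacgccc
Saa3: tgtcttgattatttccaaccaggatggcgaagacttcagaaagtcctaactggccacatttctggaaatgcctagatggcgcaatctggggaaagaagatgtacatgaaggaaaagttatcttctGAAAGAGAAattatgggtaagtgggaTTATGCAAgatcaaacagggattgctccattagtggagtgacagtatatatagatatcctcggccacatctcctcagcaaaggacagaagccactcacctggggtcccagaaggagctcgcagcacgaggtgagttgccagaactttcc
Havcr2: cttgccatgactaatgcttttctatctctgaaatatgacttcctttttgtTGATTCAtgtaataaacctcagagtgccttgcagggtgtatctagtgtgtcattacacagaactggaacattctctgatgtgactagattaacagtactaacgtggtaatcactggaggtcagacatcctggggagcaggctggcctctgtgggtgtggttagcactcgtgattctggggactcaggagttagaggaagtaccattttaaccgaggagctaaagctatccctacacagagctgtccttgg
Ung: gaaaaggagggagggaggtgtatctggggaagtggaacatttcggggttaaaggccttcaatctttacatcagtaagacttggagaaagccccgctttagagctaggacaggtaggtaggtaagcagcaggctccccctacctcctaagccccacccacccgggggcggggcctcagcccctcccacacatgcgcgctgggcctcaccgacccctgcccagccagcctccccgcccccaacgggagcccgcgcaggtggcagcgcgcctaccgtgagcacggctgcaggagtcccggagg

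The motifs, searched on both strands, were C/EBP (TTGCNNAA), GAS (TTCNNNGAA), ISRE (GAAANNGAA), AP-1 (TGANTCA), ARE (TGACNNNGC, which can overlap AP-1), the E-box (CACGTG) and the κB motif. The Steap4 window held 2 κB matches, 1 C/EBP and 1 GAS match, and the Saa3 window held 1 C/EBP and 1 ISRE match. Havcr2 had 1 AP-1 match and Ung had none of these letters. Over the acute phase and complement genes, 8 of 12 had an entry, and 7 of these (87.5%) held a C/EBP match, against 10.8% of all 27025 promoters of the same length. A match describes the sequence and says nothing of binding.

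Saa3, which encodes serum amyloid A3, an acute phase apolipoprotein, was the most abundant of the list except in LPS_NZM. There it averaged 149 TPM, below C3 (209 TPM) and Lcn2 (157 TPM). The level of Saa3 was 3212, 3666 and 3634 TPM in Aged and 18489, 19072 and 19041 TPM in Aged_NZM, and 10479, 10201 and 9834 TPM in LPS and 137, 151 and 159 TPM in LPS_NZM. The order of the cell types was turned around, with LPS above Aged but LPS_NZM far below Aged_NZM. The log2 changes were 2.43 ± 0.06 (SE, 3 libraries a group) in BMSC and -6.08 ± 0.06 in BMDM. The difference of 8.52 ± 0.08 (adjusted p = 9.21e-15 by limma) was the largest among the genes ranked, which had no overlap of libraries in either cell type.

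Steap4, a metalloreductase of iron and copper, stood at 26.8, 25.5 and 24.0 TPM in Aged and 197, 205 and 209 TPM in Aged_NZM. In BMDM it stood at 27.9, 27.8 and 30.4 TPM in LPS and 0.74, 0.66 and 0.79 TPM in LPS_NZM. Both cell types thus began near the same level and separated with NZM, with a difference in log2 change of 7.05 ± 0.08 (adjusted p = 1.26e-14). Hp, haptoglobin, which binds free haemoglobin, went from 11.8, 12 and 10.7 to 92.1, 80.5 and 81.6 TPM in BMSC and from 1068, 1050.3 and 1078 to 101, 102 and 101 TPM in BMDM, so that the 2 cell types ended close together after starting far apart. Its difference was 6.15 ± 0.07 (adjusted p = 2.94e-14).

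Complement genes followed the same course. Cfb, factor B, which forms the alternative pathway convertase, was 48.2, 47.0 and 44.9 TPM in Aged and 193, 191 and 185 TPM in Aged_NZM, and 759, 785 and 781 TPM in LPS and 28.4, 32.7 and 30.8 TPM in LPS_NZM (difference 6.62 ± 0.06, adjusted p = 9.21e-15). C3, the central component, was 107, 96.5 and 102 TPM in Aged, 632, 621 and 619.7 TPM in Aged_NZM, 534, 558 and 567 TPM in LPS and 212, 209 and 207 TPM in LPS_NZM. C3 rose more in BMSC (2.60) than it fell in BMDM (-1.40), whereas Cfb changed more in BMDM (2.00 and -4.62). Lcn2, a lipocalin that withholds bacterial siderophores, changed by 1.20 in BMSC and -3.41 in BMDM. Cp, the ferroxidase ceruloplasmin, changed by 1.15 and -3.36, and Ptx3, a long pentraxin, by 1.97 and -2.02. Cebpd, a C/EBP transcription factor induced in the acute phase, rose by 1.25 in BMSC and fell by 2.74 in BMDM.

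**Figure D3:**
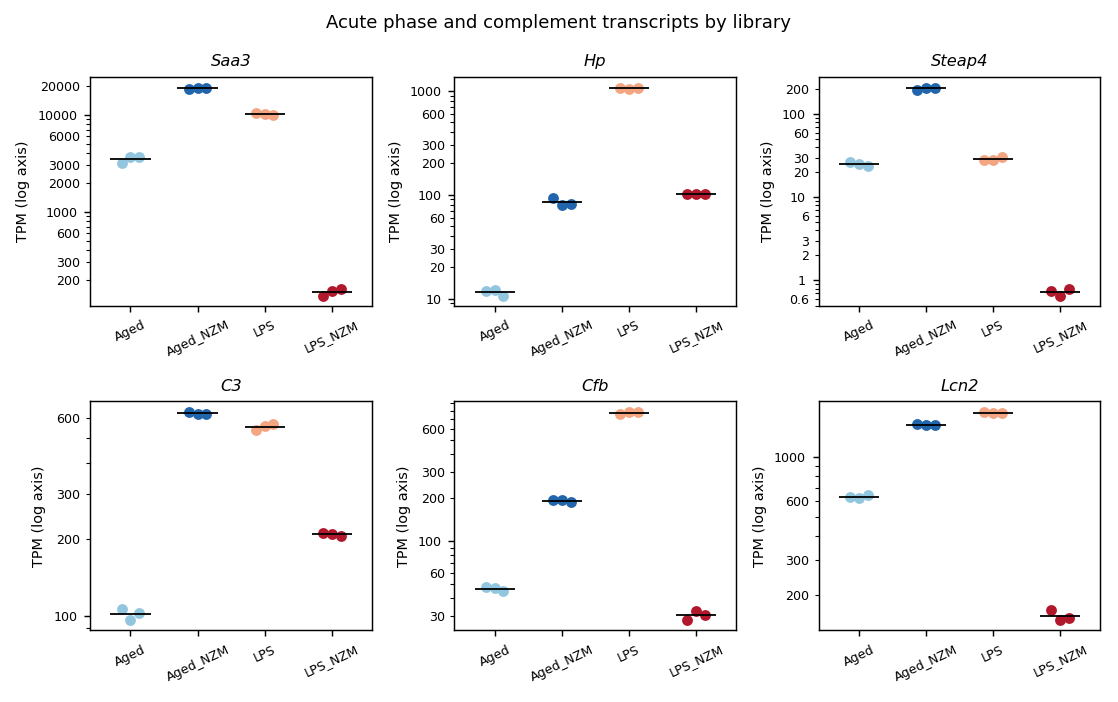
TPM (log axis) of Saa3, Hp, Steap4, C3, Cfb and Lcn2 in each library, with 3 points a group and a line at the group mean. In all 6 genes the Aged_NZM libraries lie above the Aged libraries and the LPS_NZM libraries below the LPS libraries.

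Other genes of the set that rose in BMSC and fell in BMDM included a protease and a lipid exporter. Mmp3, stromelysin, a matrix protease, was 11.6, 9.03 and 10.1 TPM in Aged, 45.8, 46.1 and 46.9 TPM in Aged_NZM, 5.73, 5.58 and 5.72 TPM in LPS and 0.62, 1.09 and 0.69 TPM in LPS_NZM. Abca1, which exports cholesterol to apolipoprotein A, was 7.64, 7.90 and 7.06 TPM in Aged, 26.5, 28.1 and 27.3 TPM in Aged_NZM, 64.6, 65.9 and 64.5 TPM in LPS and 15.9, 17.4 and 17.8 TPM in LPS_NZM. Abca1 was higher in BMDM without NZM and higher in BMSC with it. Wfdc17, a whey acidic protein domain gene of myeloid cells, rose by 2.43 in BMSC from a low level of 2.54, 2.16 and 1.94 TPM and fell by 1.73 in BMDM. Icam1, an adhesion molecule for leukocytes, changed by 1.02 and -1.82, and the chemokine gene Ccl9 by 1.33 and -1.71. Wfdc17, Icam1 and Ccl9 reached 5 TPM in BMSC through Aged_NZM alone.

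Interferon-stimulated genes fell in BMDM without a like fall in BMSC. Of 39 listed genes 31 were expressed in both, and all 31 fell in BMDM (median -2.54). In BMSC 12 rose and 9 fell (median 0.04; 18 and 7 after centring). The response was higher in BMSC for 30 of 31, the exception being Irf9, a subunit of the interferon-activated transcription complex, whose changes of -0.25 and -0.35 differed with an adjusted p of 0.154. That exception depended on the scale, as the difference of 0.10 became 0.72 after centring (adjusted p = 2.93e-07), where all 31 genes were higher in BMSC, and 0.47 after quantile normalization (adjusted p = 7.01e-06). It also hung on a single library, as the deposited difference passed without Aged replicate 1 (0.14, adjusted p = 0.0295 by limma). Ifit1, an antiviral RNA-binding protein, was 17.5, 16.2 and 15.1 TPM in Aged, 24.8, 24.5 and 25.8 TPM in Aged_NZM, 1087, 1092 and 1084 TPM in LPS and 29.2, 30.8 and 32.3 TPM in LPS_NZM. After NZM the macrophage level of Ifit1 was thus close to that of BMSC, with a difference in log2 change of 5.69 ± 0.07 (adjusted p = 3.9e-14). Ifit2 changed by 0.43 in BMSC and -4.83 in BMDM, and the near-identical pair Ifit3 and Ifit3b, which may share reads, by 0.79 and 0.76 in BMSC and -4.74 and -4.73 in BMDM. Of 26 promoters on this list with an entry, 17 (65.4%) held an ISRE match, against 8.57% of all promoters.

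Genes of the NF-kB pathway split in the same way. Among 22 of 24 subunits, inhibitors and feedback genes, 21 fell in BMDM (median -1.91), while 10 rose and 9 fell in BMSC (median 0.01). Nfkbia, the inhibitor IkB alpha, was 168, 168 and 159.6 TPM in Aged and 158, 148 and 144 TPM in Aged_NZM, a change of -0.14 that turned to 0.01 after centring. In BMDM it went from 1077, 1064 and 1111 to 215, 215 and 218 TPM (-2.32). Tnip1, which brakes the pathway together with A20, rose by 0.71 in BMSC and fell by 3.07 in BMDM, and Nfkbiz, an inducible nuclear IkB, changed by 0.12 and -3.52. Socs3, which ends cytokine receptor signalling, rose by 0.95 in BMSC, from 42.2, 44.0 and 42.8 TPM to 84.7, 84.4 and 83.4 TPM, and changed by -4.57 in BMDM. Tnfaip2 was the member with the larger fall in BMSC (-2.13, against -1.79 in BMDM), but the difference of -0.34 became 0.29 after centring.

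Cytokines and chemokines differed one from another. Il6, a cytokine of the acute phase, rose from 85.3, 89.4 and 87.9 to 149, 168 and 162 TPM in BMSC and fell from 666, 621 and 600.0 to 8.40, 10.9 and 9.31 TPM in BMDM, a difference of 6.76 ± 0.11 (adjusted p = 2.07e-13). Macrophages thus held more Il6 RNA than BMSC without NZM and less with it. Il1rn, the interleukin-1 receptor antagonist, changed by 0.74 and -4.42. Lif, of the Il6 family, fell in both (-1.53 in BMSC and -1.78 in BMDM), and Csf1, the macrophage growth factor, rose in both (0.29 and 0.62; 0.43 and 0.14 after centring).

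Of 12 chemokines expressed in both, 8 rose in BMSC and 8 fell in BMDM (10 and 10 after centring), against 20.6% and 17.2% of all genes. In BMDM 4 rose, and 1 after centring. Ccl5, which draws T cells and monocytes, was 42.4, 42.8 and 44.7 TPM in Aged, 74.2, 59.7 and 60.9 TPM in Aged_NZM, 3818, 3760.4 and 3727 TPM in LPS and 58.9, 59.6 and 63.4 TPM in LPS_NZM, so that the 2 cell types met at a like level with NZM. The neutrophil chemokines Cxcl1 and Cxcl5 changed by 0.28 and 0.96 in BMSC and -4.08 and -4.16 in BMDM. The BMSC change of Cxcl1 did not pass in the limma fit of all 15 libraries (adjusted p = 0.308). Cxcl2, another neutrophil chemokine, fell in both (-1.15 and -3.21). Cxcl10, an interferon-induced chemokine, fell by 6.53 in BMDM, and its change in BMSC of 0.11 did not pass the test. Ccl2, the monocyte chemokine, showed no difference that passed (adjusted p = 0.403): it was 1034, 1147 and 1121 TPM in Aged, 1338, 1294 and 1294 TPM in Aged_NZM, 908, 857 and 826 TPM in LPS and 968, 964 and 1023 TPM in LPS_NZM, and its BMDM change of 0.19 became -0.29 after centring. The difference of 0.06 passed as 0.68 after centring (adjusted p = 3.37e-06) and as -0.23 after quantile normalization (adjusted p = 0.00653).

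Ribosome biogenesis showed the reverse arrangement. Cells make ribosomes in the nucleolus, where RNA polymerase I transcribes the ribosomal RNA precursor and small nucleolar ribonucleoproteins and processing factors trim and modify it. All 40 listed genes of this kind expressed in both fell in BMSC (median -1.20) and all rose in BMDM (median 1.18), against medians of -0.23 and 0.49 over all genes. After centring, all still fell in BMSC and 39 rose in BMDM, the exception being Wdr43 (0.33, centred -0.15), singled out after its values were seen. The list supplied 27 of the 146 genes that fell in BMSC and rose in BMDM at least 2-fold, and 10 of the 39 after centring.

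Rrp12, needed for export and maturation of both subunits, was 46.2, 44.7 and 45.0 TPM in Aged and 12.7, 13.1 and 12.3 TPM in Aged_NZM, and 8.92, 10.9 and 10.4 TPM in LPS and 34.0, 35.2 and 35.1 TPM in LPS_NZM. Without NZM the transcript was more abundant in BMSC, and with NZM in BMDM, a difference in log2 change of -3.45 ± 0.09 (adjusted p = 6.8e-12). Heatr1, a component of the small subunit processome, was 37.9, 33.6 and 33.0 TPM in Aged, 11.3, 10.8 and 11.9 TPM in Aged_NZM, 17.6, 17.6 and 15.5 TPM in LPS and 53.3, 52.2 and 54.4 TPM in LPS_NZM, and changed hands between the cell types in the same way. Dkc1, the pseudouridine synthase dyskerin, fell by 1.51 in BMSC and rose by 1.80 in BMDM. Polr1b, a large subunit of RNA polymerase I, changed by -1.41 and 1.75, Ncl, nucleolin, by -1.0 and 1.21, and Nop56, of the box C/D particles, by -1.42 and 1.41. Across the list the changes ran from -1.86 to -0.60 in BMSC and from 0.33 to 1.80 in BMDM.

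**Figure D4:**
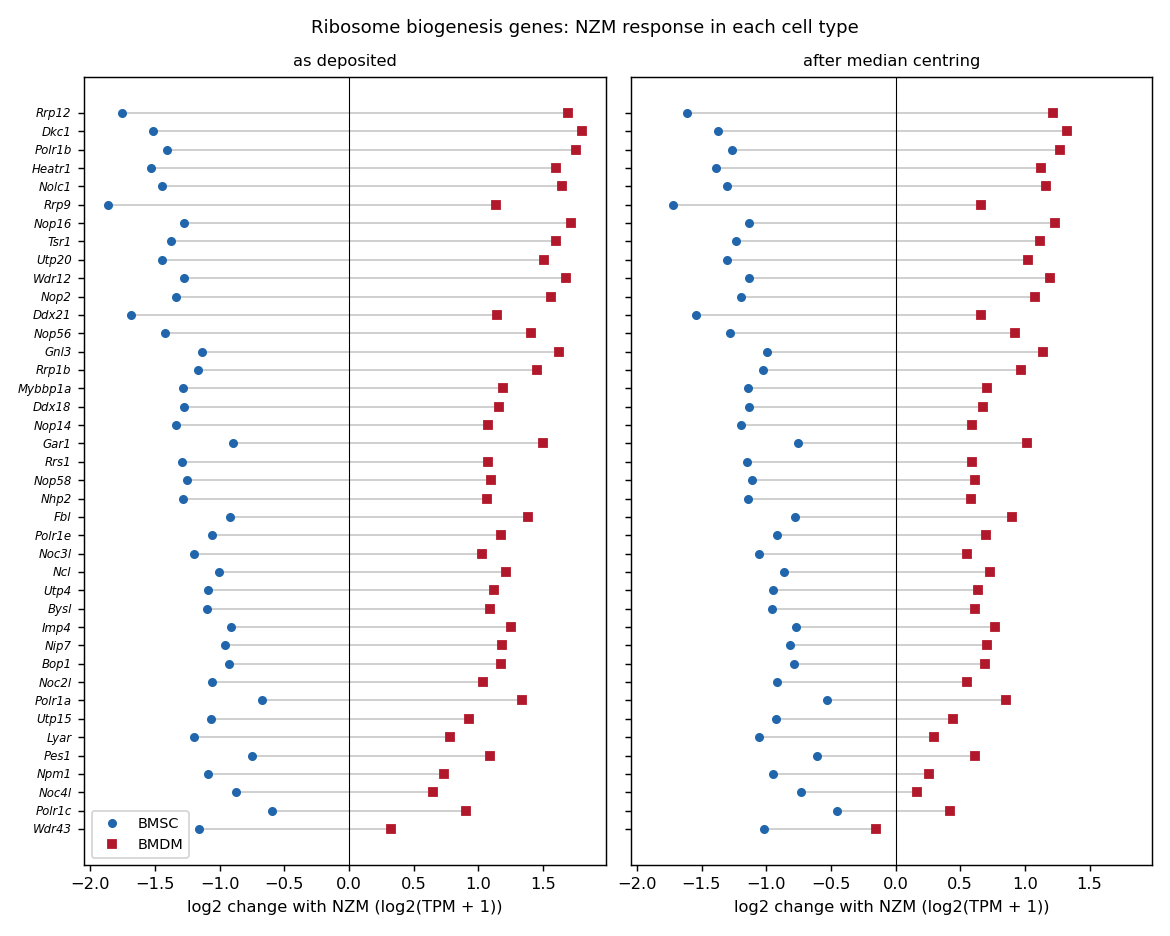
Change with NZM of 40 ribosome biogenesis genes in BMSC (blue circles) and BMDM (red squares), on the deposited log2(TPM + 1) scale (left) and after median centring (right), 1 line a gene. All circles lie below 0 and, apart from Wdr43 after centring, all squares above it.

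Myc, the transcription factor known for driving ribosome production, moved with these genes: it was 219, 211 and 217 TPM in Aged, 118, 117 and 115 TPM in Aged_NZM, 43.5, 45.2 and 42.1 TPM in LPS and 139.9, 141 and 143 TPM in LPS_NZM. Of 35 list promoters with an entry 8 (22.9%) held an E-box, against 11.1% of promoters of genes expressed in both. In the set that fell in BMSC and rose in BMDM at least 2-fold, 24 of 121 (19.8%) held one. The part of Myc in these changes was not tested. Trmt61a, part of the methyltransferase that modifies initiator tRNA, was 24.2, 22.0 and 24.1 TPM in Aged, 7.08, 6.47 and 6.96 TPM in Aged_NZM, 8.18, 9.37 and 8.48 TPM in LPS and 42.1, 42.5 and 44.7 TPM in LPS_NZM.

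Ribosomal proteins themselves changed little by comparison. Of 53 such genes, which have many pseudogenes that may share reads, 39 fell in BMSC (median -0.23) and 50 rose in BMDM (median 0.53). These medians were close to those of all genes. After centring 21 fell in BMSC and 16 rose in BMDM, but after quantile normalization 39 fell and 51 rose (medians -0.30 and 0.69). Splicing factors fell in BMSC in 30 of 33 cases and rose in BMDM in 30 (27 and 18 after centring, 28 and 29 after quantile normalization). The shares of all genes were 56.3% and 71.7% as deposited. Ptbp1, a splicing repressor, changed by -0.73 and 0.99, and Prpf19, of the activated spliceosome, by -0.47 and 1.17.

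Genes that copy and repair DNA also fell in BMSC and rose in BMDM. Of 33 replication genes expressed in both, 28 fell in BMSC (median -0.51) and 32 rose in BMDM (median 0.99). After centring 25 fell and 29 rose. The shares of all genes were 56.3% and 71.7% (43.2% and 38.7% after centring). At least 5 TPM in all 4 groups was held by 27 of the replication genes, the others being lower in some group. The members that rose in BMSC were Tyms and Tk1, named after their values were seen, and Tk1 did not pass without Aged replicate 3 (adjusted p = 0.155). Mcm2, a subunit of the replicative helicase, was 168, 155 and 159.7 TPM in Aged, 73.2, 71.3 and 72.5 TPM in Aged_NZM, 10.9, 11.9 and 12 TPM in LPS and 42.3, 42.0 and 43.2 TPM in LPS_NZM. The libraries with NZM lay below those without it in BMSC and above them in BMDM. Cdt1, which licenses origins, changed by -1.28 and 1.59, and Mcm3 and Mcm7 by -0.99 and -0.97 in BMSC and 1.45 and 1.38 in BMDM.

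Among 22 repair genes, 18 fell in BMSC and all 22 rose in BMDM (16 and 19 after centring), with H2afx the member that rose in BMSC. Of all genes 56.3% fell in BMSC and 71.7% rose in BMDM. At least 5 TPM in all 4 groups was held by 15 of them, and members such as Ung reached it in BMDM through the group with NZM alone. Ung, uracil DNA glycosylase of base excision repair, was 13.8, 14.3 and 13.9 TPM in Aged, 3.05, 4.20 and 3.69 TPM in Aged_NZM, 0.99, 0.78 and 0.57 TPM in LPS and 6.22, 5.08 and 5.28 TPM in LPS_NZM. Ung was thus under 1 TPM in LPS-treated BMDM and with NZM came to lie above the level left in BMSC, with a difference of -3.58 ± 0.16 (adjusted p = 7.47e-10). Apex1, the endonuclease that acts after it, changed by -0.91 and 2.30, and Parp1, a sensor of strand breaks, by -0.53 and 1.98.

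Cell cycle entry and mitosis parted in BMSC. Ccnd1, cyclin D1, the cyclin of the G1 phase, was 158, 155 and 153 TPM in Aged and 58.7, 58.9 and 59.1 TPM in Aged_NZM, and 23.8, 22.2 and 24.5 TPM in LPS and 211, 225 and 232 TPM in LPS_NZM, a difference of -4.58 ± 0.06 (adjusted p = 4.31e-14). Of 18 cyclins and E2F or Rb family genes, 16 fell in BMSC and 14 rose in BMDM (12 and 10 after centring), the BMDM share being near the 71.7% of all genes that rose there. In BMSC 56.3% of all genes fell. Skp2, which marks cyclin-dependent kinase inhibitors for destruction, changed by -0.41 and 1.50, and E2f1 by -0.49 and 1.30.

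Mitotic genes rose in BMSC, in 30 of 35 cases with none falling (median 0.56; 34 after centring). In BMDM 29 rose and 2 fell on the deposited scale, but 2 rose and 15 fell after centring, so that no direction can be given there. Mki67, the proliferation antigen, was 23.0, 20.8 and 22.1 TPM in Aged, 41.0, 46.5 and 44.1 TPM in Aged_NZM, 22.5, 26.6 and 23.7 TPM in LPS and 20.5, 21.4 and 22.5 TPM in LPS_NZM. Nusap1 and Ube2c, of the spindle and of mitotic exit, rose by 1.18 and 1.07 in BMSC. Pttg1, securin, rose by 0.55 in BMSC and fell by 1.67 in BMDM, one of the 2 BMDM falls, with Mki67 (-0.17, adjusted p = 0.0394, or 0.178 without LPS replicate 2).

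The cell cycle inhibitors Cdkn1a and Cdkn2a moved in contrary directions in BMSC. Cdkn1a, encoding p21, a target of p53, was 213, 202 and 196 TPM in Aged and 51.8, 50.5 and 46.5 TPM in Aged_NZM, and 2189.9, 2174 and 2266 TPM in LPS and 2184, 2163 and 2204 TPM in LPS_NZM. Its change was -2.02 in BMSC and -0.02 in BMDM, the second not past the test as deposited (centred -0.50), and the difference was -2.00 ± 0.06 (adjusted p = 2.03e-11). Cdkn2a, which encodes p16 and ARF and accumulates in senescent cells, went the other way in BMSC, from 261, 263 and 278 to 699, 657 and 676 TPM. It was low in BMDM, at 9.72, 7.59 and 8.64 TPM in LPS and 7.24, 6.51 and 11.0 TPM in LPS_NZM. Its BMDM change passed by limma as -0.565 after centring (adjusted p = 0.00237) and -0.56 after quantile normalization (adjusted p = 0.00287). Other p53 targets were mixed: of 26 genes on that list 14 fell in BMSC and 16 rose in BMDM (13 and 13 after centring). Neither deposited count was above the share of all genes, 56.3% and 71.7%. Sesn1, a stress-induced inhibitor of mTORC1, changed by 0.52 and 3.42, Aen, an apoptosis-enhancing nuclease, by -1.53 and 0.97, and the death receptor gene Fas by 0.53 and -1.86.

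Of 23 BCL2 family and caspase genes 3 rose and 15 fell in BMSC (3 and 11 after centring), and 10 rose and 9 fell in BMDM (6 and 14). Over all genes 56.3% fell in BMSC and 71.7% rose in BMDM as deposited. Bcl2l1, which protects mitochondria, changed by -0.85 in BMSC and 1.27 in BMDM. Casp6, an executioner caspase, rose by 3.45 in BMDM, beside 0.10 in BMSC, whereas Casp4, the sensor of cytosolic LPS, fell by 3.33 in BMDM, its BMSC change of -0.05 (centred 0.09) not passing the test.

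Targets of ATF4, the factor that answers amino acid shortage and endoplasmic reticulum stress, fell in BMSC. Of 28 listed genes 24 fell there (median -1.21, and 23 after centring), and none rose on the deposited scale. The share of all genes that fell there was 56.3% (43.2% after centring). In BMDM 17 rose and 7 fell (median 0.28), turning to 8 and 15 after centring and 11 and 12 after quantile normalization. Atf4 itself was 739, 762 and 760.4 TPM in Aged and 380.0, 374 and 369 TPM in Aged_NZM (-1.01), and its BMDM change of 0.13 became -0.35 after centring. Trib3, a pseudokinase that restrains ATF4, was 111, 106 and 100.1 TPM in Aged, 32.0, 28.1 and 31.5 TPM in Aged_NZM, 11.4, 11.7 and 12.9 TPM in LPS and 18.4, 16.6 and 16.9 TPM in LPS_NZM. Chac1, which degrades glutathione, changed by -1.73 and 0.54 (the second 0.06 after centring), and the glutamine carrier gene Slc1a5 by -1.48 and 1.44. The arginine carrier gene Slc7a1 changed by -1.51 and 0.73.

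Protein folding and degradation genes fell in BMSC. Of 23 heat shock and chaperonin genes 20 fell there (median -0.78), and of 31 proteasome genes 30 fell (median -0.51, and 29 after centring). Of all genes 56.3% fell in BMSC (43.2% after centring). Heat shock genes in BMDM gave 16 rises and 4 falls, which turned to 7 and 10 after centring but were 16 and 6 after quantile normalization. Proteasome genes gave 18 and 4 in BMDM, 0 and 27 after centring and 20 and 5 after quantile normalization. The deposited rises stood beside 71.7% of all genes. Hspd1, the mitochondrial chaperonin, was 507, 518 and 505 TPM in Aged, 212, 222 and 219 TPM in Aged_NZM, 177, 172 and 177 TPM in LPS and 344, 359 and 361 TPM in LPS_NZM. Hsph1, a nucleotide exchange factor for Hsp70, changed by -0.94 and 1.43. Hspa1a, an inducible Hsp70 gene with a near-identical copy that may share reads, went the other way, by 0.27 and -1.82.

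The endoplasmic reticulum's own unfolded protein response was different again in BMSC. Of 22 genes 13 rose in BMSC and 18 in BMDM, 12 of them in both. The shares of all genes were 20.6%, 71.7% and 13%. The BMDM median of 0.46 was near the 0.49 of all genes. In BMDM 7 rose and 10 fell after centring, but 15 rose and 3 fell after quantile normalization. Pdia4, a disulphide isomerase, rose by 0.43 in BMSC and 2.58 in BMDM. Hspa5, the chaperone BiP, was 483, 468 and 449.6 TPM in Aged, 508, 522 and 518 TPM in Aged_NZM, 848, 849 and 869 TPM in LPS and 829.6, 828 and 855 TPM in LPS_NZM, a rise of 0.14 in BMSC and a change of -0.03 in BMDM that did not pass. The BMDM change passed as -0.51 after centring (adjusted p = 3.02e-09) and as 0.17 after quantile normalization (adjusted p = 0.00153).

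Antioxidant genes under NRF2 fell in both cell types. NRF2 is freed from KEAP1 by oxidants and electrophiles and drives glutathione, thioredoxin and quinone reductase genes. Of 28 such genes 21 fell in BMSC and 19 in BMDM, 15 of them in both, with medians of -0.46 and -0.54 (18 and 22 falls after centring). Over all genes 56.3% fell in BMSC, 17.2% in BMDM and 8.5% in both. Slc7a11, the cystine carrier that feeds glutathione synthesis, was 21.7, 21.8 and 21.2 TPM in Aged and 4.44, 4.90 and 5.16 TPM in Aged_NZM, a change of -1.95, beside -4.68 in BMDM. Prdx1, a peroxiredoxin, changed by -1.05 and -1.21, and Sqstm1, the autophagy receptor p62, by -1.08 and -1.77. Hmox1, haem oxygenase, went from 1125, 1070.1 and 1079 to 755, 735 and 722 TPM in BMSC and from 3718, 3704 and 3686 to 903, 920.3 and 923 TPM in BMDM.

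Some members of this list did not move together. Nqo1, the quinone reductase, was 213, 215 and 209 TPM in Aged and 43.3, 45.7 and 44.4 TPM in Aged_NZM but 47.6, 47.0 and 46.2 TPM in LPS and 48.3, 48.5 and 48.9 TPM in LPS_NZM, where all 6 libraries lay within a narrow range and the change of 0.05 did not pass (adjusted p = 0.179). That call belongs to the deposited scale, as the change was -0.43 after centring (adjusted p = 8.3e-08) and -0.24 after quantile normalization (adjusted p = 9.22e-06). Its difference was -2.28 ± 0.04 (adjusted p = 6.55e-13). Gclc, the catalytic subunit of the enzyme that begins glutathione synthesis, changed by -1.19 and 0.68, while Gclm, its modifier subunit, changed by -0.65 and -0.48, a difference of -0.17 that turned to 0.45 after centring. Promoters with an ARE match made up 9 of 24 (37.5%), against 15% of promoters of genes expressed in both.

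Sod2, mitochondrial superoxide dismutase and a gene also induced through NF-kB, rose in BMSC from 102, 103 and 102 to 165, 163 and 161 TPM and fell in BMDM from 537, 537 and 537 to 43.2, 45.4 and 44.5 TPM. Of 13 metallothionein and zinc transporter genes 5 rose and 6 fell in BMSC, and 5 rose and 4 fell in BMDM (6, 3, 3 and 8 after centring). Mt2, a metallothionein, changed by 0.61 in BMSC, or -0.08 after quantile normalization, and by -2.63 in BMDM, and Slc39a14, a zinc and iron importer, by 0.46 and -1.82. Tfrc, the transferrin receptor, had the reverse order, -0.95 and 2.24.

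Glycolytic genes leaned upward in BMSC and downward in BMDM. Of 20 glycolytic genes 12 rose in BMSC and 13 fell in BMDM (15 and 15 after centring). The shares of all genes were 20.6% and 17.2% (29.3% and 39.5% after centring). Pfkfb3, which makes the activator of phosphofructokinase, was 81.6, 75.4 and 73.5 TPM in Aged, 134, 129.9 and 134 TPM in Aged_NZM, 1711, 1734 and 1782 TPM in LPS and 53.3, 54.9 and 62.3 TPM in LPS_NZM. Its groups did not overlap in either cell type, and the higher level passed from BMDM to BMSC with NZM. Hif1a, the oxygen-regulated factor upstream of many of these genes, changed by 0.24 and -1.85, and the lactate carrier gene Slc16a1 by 0.75 and -1.13. Gapdh, often used as a reference gene, ranged from 68.3 to 128.3 TPM in LPS and from 66.6 to 215.3 TPM in LPS_NZM against 3691 to 4672 TPM in BMSC, and passed the test in neither cell type (adjusted p = 0.613 and 0.695). Fitted on the BMSC libraries alone, its change of 0.25 there passed (adjusted p = 0.00935), and pseudogenes may share its reads.

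Mitochondrial enzymes rose in BMDM, in 21 of 22 genes of the TCA cycle and 36 of 40 nuclear genes of the respiratory chain, beside 71.7% of all genes. Their medians of 0.61 and 0.46 lay near that of all genes. The rises numbered 12 and 11 after centring, but 19 and 32 after quantile normalization. In BMSC 5 TCA cycle genes rose and 11 fell, and 6 respiratory chain genes rose and 17 fell. Of all genes 20.6% rose and 56.3% fell there. Idh3a, of the NAD-dependent isocitrate dehydrogenase, changed by -0.79 in BMSC and 0.89 in BMDM. In lipid metabolism, Pparg, the nuclear receptor of fat storage and alternatively activated macrophages, was 9.76, 11.9 and 10.9 TPM in Aged, 7.01, 7.02 and 6.74 TPM in Aged_NZM, 4.56, 5.51 and 4.68 TPM in LPS and 56.7, 59.4 and 59.1 TPM in LPS_NZM. Fasn, fatty acid synthase, changed by -0.77 and 1.45, while Acsl1 and Dgat2, which activate and esterify fatty acids, changed by 0.27 and 0.38 in BMSC and -3.11 and -2.94 in BMDM. Hmgcs1, of cholesterol synthesis, changed by -0.11 in BMSC (not past the test; centred 0.04) and -0.34 in BMDM.

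Lysosomal genes had medians of 0.09 in BMSC and 0.47 in BMDM, the second close to that of all genes. Of 34 listed genes 16 rose and 12 fell in BMSC, and 30 rose and 2 fell in BMDM. The BMDM counts turned to 13 and 14 after centring, but were 28 and 2 after quantile normalization. Tfeb, a master regulator of lysosome genes, rose in both, by 0.46 and 2.17, and Gusb, a hydrolase, changed by -0.39 and 1.33. Atp6v0a1, which is not on the list and encodes a subunit of the proton pump that acidifies lysosomes, was 65.7, 57.7 and 60.9 TPM in Aged, 43.0, 41.9 and 40.5 TPM in Aged_NZM, 37.8, 35.6 and 36.8 TPM in LPS and 734, 738 and 735 TPM in LPS_NZM, a difference of -4.83 ± 0.06 (adjusted p = 4.31e-14). Of 19 genes of arginine, proline and polyamine metabolism 14 fell in BMSC (13 after centring), and 13 rose and 6 fell in BMDM. The BMDM counts turned to 5 and 11 after centring and were 10 and 7 after quantile normalization. The deposited BMDM rises were near the 71.7% of all genes. Srm, spermidine synthase, changed by -0.51 and 1.56, and Amd1, which supplies its substrate, by -0.83 and 1.11.

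Matrix genes rose in BMSC, while their values in BMDM depended on the scale. All 16 collagen genes expressed in both rose in BMSC (median 1.21), as did 21 of 26 other matrix genes and 20 of 22 enzymes that modify collagen. In BMDM 9 collagens rose and 6 fell as deposited (median 0.14), 0 rose and 15 fell after centring, and 6 rose and 7 fell after quantile normalization. The stromal markers of BMDM, which include several of these genes, summed to 3180 to 3370 TPM in LPS and 3040 to 3170 TPM in LPS_NZM, and which cells carried the collagen RNA there was not tested.

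Col1a1, a chain of type I collagen, was 329.8, 299.8 and 297 TPM in Aged and 903, 839 and 847 TPM in Aged_NZM, beside 983, 1044 and 1083 TPM in LPS and 1070.2, 1055 and 1112 TPM in LPS_NZM. Thus LPS-treated BMDM held more of it than BMSC without NZM, and the difference in change was 1.42 ± 0.07 (adjusted p = 1.66e-09). Its BMDM change of 0.06 did not pass (adjusted p = 0.3), but passed as -0.42 after centring (adjusted p = 2.86e-06) and as 0.21 after quantile normalization (adjusted p = 0.00213), so that no direction can be given there. Col3a1, of type III collagen, was 307, 286 and 291 TPM in Aged, 787, 779.9 and 781 TPM in Aged_NZM, 179, 200.3 and 203 TPM in LPS and 172, 168 and 173 TPM in LPS_NZM. Col1a2 and Col12a1 rose by 1.81 and 1.88 in BMSC, against 0.12 and 0.16 in BMDM (-0.37 and -0.33 after centring). Fn1, fibronectin, rose in both, by 1.11 and 0.70, also after centring (0.22 in BMDM).

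Among other matrix proteins Thbs2, a thrombospondin, was 756, 689 and 700.0 TPM in Aged and 3961, 3901 and 3869.6 TPM in Aged_NZM, against 94.0, 97.4 and 96.6 TPM in LPS and 115, 113 and 115 TPM in LPS_NZM, where the change of 0.25 became -0.23 after centring. Fmod, a small proteoglycan that guides collagen fibrils, rose by 2.31 in BMSC and changed by 0.23 in BMDM (centred -0.25). Nid2, nidogen of basement membranes, rose by 2.78, with -0.04 in BMDM, not past the test as deposited (centred -0.52). Lgals3, galectin-3, was opposite to the rest of its list, -1.15 in BMSC and 1.61 in BMDM. Cxcl12, the niche chemokine, was 129, 126 and 129 TPM in Aged, 675, 685 and 678 TPM in Aged_NZM, 46.2, 47.9 and 43.0 TPM in LPS and 57.9, 56.9 and 62.9 TPM in LPS_NZM, with a BMDM change of 0.37 that became -0.11 after centring.

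**Figure D5:**
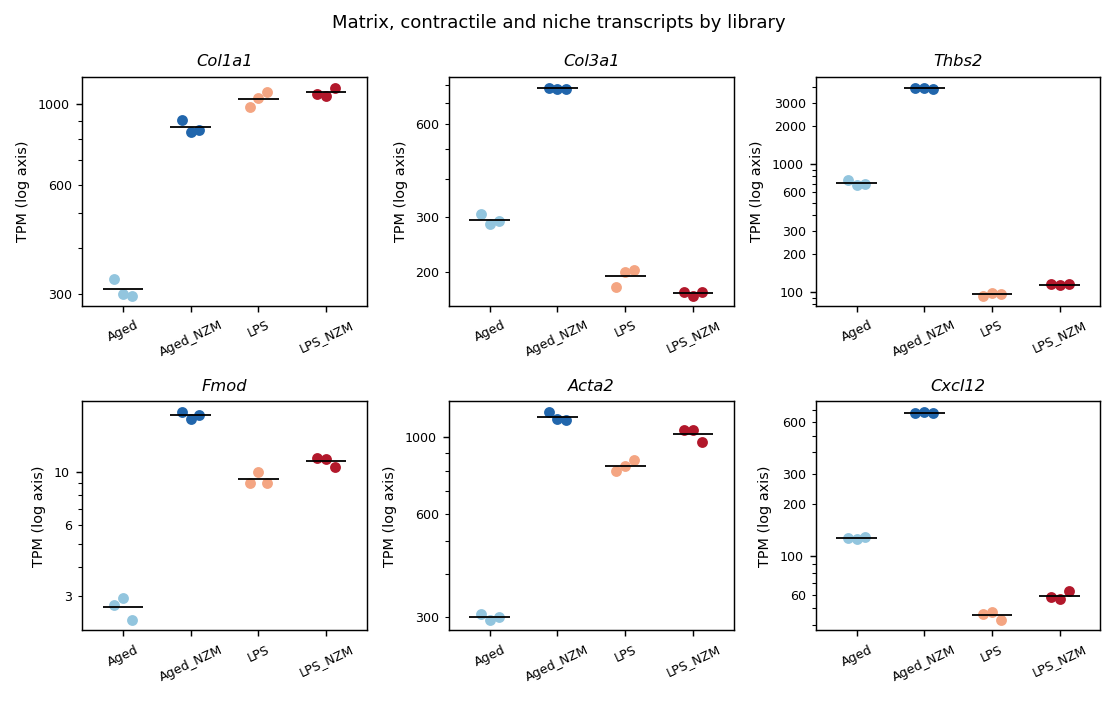
TPM (log axis) of Col1a1, Col3a1, Thbs2, Fmod, Acta2 and Cxcl12 in each library, with 3 points a group and a line at the group mean. All 6 genes are higher in Aged_NZM than in Aged, while LPS and LPS_NZM lie close together; after centring, the BMDM changes of all 6 are negative.

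Of 31 actin and contractile genes 20 rose and 6 fell in BMSC (24 and 6 after centring), and 23 rose and 5 fell in BMDM. The BMDM counts turned to 8 and 17 after centring, but were 24 and 4 after quantile normalization. The deposited BMDM rises were near the 71.7% of all genes. Acta2, smooth muscle actin, was 308, 295 and 301 TPM in Aged, 1185, 1132 and 1122 TPM in Aged_NZM, 799, 828 and 857 TPM in LPS and 1050.1, 1053 and 972 TPM in LPS_NZM, and Tagln, transgelin, rose by 2.29 in BMSC. Their changes in BMDM, 0.31 and 0.45, became -0.17 and -0.03 after centring. Ccn2, connective tissue growth factor and a target of YAP and TGF-beta, rose by 1.50 in BMSC, from 158, 148 and 154 to 442, 434 and 428 TPM, and changed by 0.29 in BMDM (centred -0.19).

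Of 22 matrix proteases and their inhibitors 14 rose and 7 fell in BMSC (15 and 5 after centring), while 9 rose and 12 fell in BMDM (7 and 14). The members named are those with the widest differences or 2-fold changes in both, and do not stand for the list. Mmp13, a collagenase always reported but outside these counts because it stayed under 5 TPM in BMSC, fell in both (-1.20 in BMSC and -2.60 in BMDM), and in BMDM it went from 1526, 1494 and 1483 to 242, 238 and 258 TPM. Mmp14, a membrane-bound collagenase, changed by 0.58 and -2.17. Plau, urokinase, and Adam8, a sheddase of leukocytes, fell in BMSC (-0.57 and -1.22) and rose in BMDM (2.68 and 2.66), whereas Plaur, the urokinase receptor, fell in both (-1.99 and -1.07).

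Havcr2, an inhibitory receptor of leukocytes, was 13.1, 12.2 and 12.5 TPM in Aged and 0.68, 0.54 and 0.80 TPM in Aged_NZM, and 5.87, 3.21 and 2.63 TPM in LPS and 29.1, 28.8 and 29.1 TPM in LPS_NZM. The difference in log2 change was -5.69 ± 0.25 (adjusted p = 7.55e-10 by limma). This was the widest in its direction among the genes ranked, which had no overlap of libraries in either cell type. Ccr1, a chemokine receptor of myeloid cells, was 19.9, 20.4 and 22.1 TPM in Aged, 0.53, 0.66 and 0.40 TPM in Aged_NZM, 70.4, 67.4 and 67.5 TPM in LPS and 139, 138 and 137 TPM in LPS_NZM. Cd53, a leukocyte tetraspanin, likewise fell in BMSC, from 5.09, 5.18 and 5.10 to 0.53, 0.48 and 0.59 TPM. The summed macrophage markers of BMSC were 127 to 135 TPM in Aged and 109 to 121 TPM in Aged_NZM, with Tyrobp, C1qb and C1qc at 0 in both. Most of the sum was Cd14, at 94.2 and 93.7 TPM, and Cd68, at 24.9 and 13 TPM. The part of leukocytes in the falls of Havcr2, Ccr1 and Cd53 was not tested.

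The phosphatase gene Dusp4, which switches off ERK, was 90.9, 90.8 and 87.3 TPM in Aged, 17.8, 17.4 and 17.8 TPM in Aged_NZM, 15.9, 14.6 and 15.6 TPM in LPS and 82.3, 76.5 and 87.5 TPM in LPS_NZM (difference -4.62 ± 0.07, adjusted p = 1.54e-13). Etv5, a transcription factor induced by ERK, was 29.9, 27.8 and 26.5 TPM in Aged, 16.0, 16.8 and 15.7 TPM in Aged_NZM, 7.76, 8.84 and 8.66 TPM in LPS and 194, 188 and 194 TPM in LPS_NZM. Both were lower with NZM in BMSC and higher in BMDM. Of 13 MAPK feedback genes 11 fell in BMSC and none rose (10 and 0 after centring), while 6 rose and 5 fell in BMDM (5 and 7 after centring); Dusp16, a phosphatase of JNK and p38, changed by -0.30 in BMSC and -3.62 in BMDM.

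Id1, a target of BMP signalling that blocks differentiation factors, was 219, 186 and 206 TPM in Aged, 70.7, 64.1 and 64.1 TPM in Aged_NZM, 60.1, 54.6 and 55.7 TPM in LPS and 250.1, 269.9 and 248 TPM in LPS_NZM. Ptgs1, the constitutive cyclooxygenase, was 104, 101 and 97.3 TPM in Aged, 40.5, 40.3 and 41.4 TPM in Aged_NZM, 18.5, 17.0 and 15.3 TPM in LPS and 215, 213 and 214 TPM in LPS_NZM. Both were higher in BMSC without NZM and higher in BMDM with it. Arhgap22, which inactivates the GTPase Rac, changed by -1.53 and 2.51, and Inhbb, a subunit of activin B, rose by 3.20 in BMSC and 0.83 in BMDM. Itga6 and Itga11, integrin subunits for laminin and collagen, changed by -2.27 and 2.63 in BMSC and 1.03 and -0.02 in BMDM, where Itga11 did not pass the test as deposited (centred -0.50).

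Of 7 genes of the insulin-like growth factor axis 4 rose and 2 fell in BMSC on both scales, and 2 rose and 0 fell in BMDM (2 and 5 after centring). Igf1, the growth factor, rose in both, from 2.04, 1.92 and 2.21 to 15.2, 14.5 and 17.1 TPM in BMSC and from 119, 117 and 116 to 390.0, 397 and 419 TPM in BMDM. In BMSC Igf1 reached 5 TPM through Aged_NZM alone. Igfbp4, a binding protein that inhibits it, changed by -0.63 in BMSC and 1.26 in BMDM, and Igfbp7 rose by 1.23 in BMSC, its BMDM change of 0.02 not passing as deposited (centred -0.46, adjusted p = 3.47e-05). Of 8 genes known from alternatively activated macrophages 5 rose in BMSC and 6 in BMDM, on both scales. Over all genes 20.6% rose in BMSC and 71.7% in BMDM as deposited, and 29.3% and 38.7% after centring. The STAT-induced feedback genes Cish and Socs2 rose by 0.75 and 1.14 in BMSC and by 3.90 and 1.89 in BMDM.

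The shared rises of at least 2-fold were led by Dhrs3, a reductase that returns retinal to retinol and is induced by retinoic acid. It was 1.32, 2.38 and 1.28 TPM in Aged, 11.6, 12.1 and 13.4 TPM in Aged_NZM, 20.5, 17.5 and 18 TPM in LPS and 279, 289 and 278 TPM in LPS_NZM, and rose by 2.35 ± 0.13 (adjusted p = 1.21e-08) in BMSC and 3.85 ± 0.13 (adjusted p = 4.64e-11) in BMDM. Gas6, the ligand of the TAM receptors for apoptotic cell uptake, was 4.98, 6.34 and 5.72 TPM in Aged, 34.1, 28.3 and 29.4 TPM in Aged_NZM, 38.5, 38.9 and 44.4 TPM in LPS and 158, 159 and 153 TPM in LPS_NZM. Dhrs3 reached 5 TPM in BMSC through Aged_NZM alone, so that its rise there was not independent of its entry. Of the 35 shared rises, 17 held at least 5 TPM in all 4 groups. The promoter window of Dhrs3 held 1 C/EBP match and that of Gas6 none of the motifs.

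Lpl, lipoprotein lipase, rose by 2.04 in BMSC and 1.25 in BMDM, and Fcgrt, the neonatal Fc receptor that recycles antibody, by 1.18 and 1.62. Scn3a, a sodium channel gene, was close to 0 in LPS (0.07, 0.10 and 0.10 TPM) and rose to 6.80, 6.99 and 6.83 TPM in LPS_NZM, beside 1.84, 1.86 and 1.89 TPM in Aged and 7.15, 7.93 and 7.91 TPM in Aged_NZM. Hist1h1c, a linker histone gene with close relatives that may share reads, rose by 1.48 and 2.49, and Mtss1, which shapes membranes with actin, by 1.32 and 3.30. Mettl7a1, a methyltransferase of lipid droplets with close paralogs, rose by 2.25 and 1.78. Scn3a reached 5 TPM in both cell types through the groups with NZM alone. So did Hist1h1c in BMSC, at 4.79 TPM in Aged, and Mtss1 in BMDM, at 4.95 TPM in LPS.

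The shared falls included pyrimidine salvage, cystine uptake and a protease inhibitor. Upp1, uridine phosphorylase, was 33.4, 31.6 and 36.0 TPM in Aged, 2.66, 2.43 and 2.67 TPM in Aged_NZM, 111, 105 and 116 TPM in LPS and 24.6, 21.2 and 20.2 TPM in LPS_NZM, with log2 changes of -3.27 ± 0.07 (adjusted p = 1.09e-11) in BMSC and -2.28 ± 0.07 (adjusted p = 3.89e-11) in BMDM. The gene U90926 was 254, 307 and 309 TPM in Aged, 50.5, 55.9 and 59.2 TPM in Aged_NZM, 178, 178 and 152 TPM in LPS and 2.40, 1.40 and 2.14 TPM in LPS_NZM. In both genes the libraries with NZM lay below all those without it, as the choice of named genes required. Of 22 genes in this set, 21 had a promoter entry and 9 (42.9%) held an AP-1 match, against 7.93% of all promoters; Upp1 held 1 and U90926 none of the motifs.

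Serpinb2, an inhibitor of plasminogen activators, was 27.2, 26.9 and 25 TPM in Aged, 4.21, 5.03 and 5.52 TPM in Aged_NZM, 766, 741 and 731 TPM in LPS and 104, 108 and 120.4 TPM in LPS_NZM. Mmp10, a stromelysin, fell in both (-2.30 and -2.25), and its difference of -0.05 (SE 0.22) did not pass (adjusted p = 0.855), but it passed with the other sign as 0.58 after centring (adjusted p = 0.0373) and 0.74 after quantile normalization (adjusted p = 0.0142). Arg2, the mitochondrial arginase, changed by -1.53 and -2.49, and Ass1, which rebuilds arginine from citrulline, by -1.26 and -2.36. Mndal, of the interferon-induced IFI200 family whose members may share reads, changed by -1.55 and -2.91, a fall in BMSC that the interferon list as a whole did not show.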

How the data were processed

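PolyA RNA of mouse bone marrow cells had been sequenced from libraries made with a stranded kit, per the labels' protocols. The authors deposited 1 table of TPM values per gene identifier and library; fastp, HISAT2, StringTie, RSEM and the build GRCm39 are named in the submitters' processing notes, without versions, and the annotation is not given in the sources used here. Names came from a table supplied with the reference, which matched 52072 of 56979 identifiers. TPM keeps no read depth, so precision rests on the 3 libraries a group.

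Values were transformed to log2(TPM + 1), which understates the change of low genes. Genes with at least 1 TPM in at least 3 of the 12 libraries were fitted together with limma 3.58.1 in R 4.3.3 (group means, moderated variance with trend, two-sided, Benjamini-Hochberg over the 16352 genes). Every adjusted p above is from limma, and the fit was tested on simulated data. The contrasts were Aged_NZM minus Aged, LPS_NZM minus LPS, and the first minus the second. Named genes were the 8 leading genes of each at least 2-fold set and the 5 largest differences in each direction (without overlap of libraries and in the same set after centring), up to 4 members of each list with the largest differences, members in those sets, and a set of genes always reported; exceptions to a list's count were named after their values were seen. Some genes that this rule names are not reported here. The members and lists were chosen with earlier results of these data known. Promoter sequences and names of their genes came from RefSeq (GRCm38.p6), 1 window a gene, matched by symbol for 7229 of 9152 symbols. Alternatives covered scaling, filters, pseudocount, variance model, a replicate block and each library left out.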

Additional observations from a re-analysis of the deposited data

Results flagged for a closer look

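The change with NZM differed between BMSC and BMDM, by the limma test of the difference itself, for 8064 of 9155 genes expressed in both. Among the named genes that moved at least 2-fold in opposite directions, the change in BMSC minus that in BMDM (log2) was 8.52 for Saa3, 7.05 for Steap4, 6.62 for Cfb, 6.15 for Hp, 4.15 for Wfdc17, 3.99 for Ptx3, 3.98 for Mmp3 and 3.60 for Abca1. In the other direction it was -5.69 for Havcr2, -4.62 for Dusp4, -4.03 for Arhgap22, -3.83 for Trmt61a, -3.75 for Id1, -3.58 for Ung, -3.45 for Rrp12 and -3.14 for Heatr1. These genes were named among those whose libraries did not overlap. The 2 cell types also differed in pretreatment, which cannot be told apart from cell type here.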

How the results depend on the processing

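The scale was the choice that moved results. The 32 genes that rose in BMSC and fell in BMDM at least 2-fold became 74 with median centring and 65 with quantile normalization, and the 146 that fell in BMSC and rose in BMDM became 39 and 50. When 20 TPM replaced 5 TPM as the level a gene had to reach, fewer genes entered: 4939 had a different response, 4487 changed in BMSC and 4991 in BMDM, with 15 shared rises and 18 genes higher in BMSC and lower in BMDM. The other totals stayed within 1.5 times over 24 settings, but their directions did not: genes with a response higher in BMSC went from 1577 to 3400 with centring and 2843 with quantile normalization (lower, 6487 to 3826 and 4447), and BMDM falls from 1574 to 3614 and 2722 (rises, 6565 to 3546 and 4532). Leaving out each library in turn gave 7960 to 8021 genes with a different response, 6665 to 7086 changed in BMSC, 7985 to 8167 changed in BMDM, and 33 to 36, 21 to 25, 30 to 33 and 136 to 152 genes in the 4 sets.

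Among the genes named, directions turned with median centring for the BMSC change of Nfkbia (0.0057), for the BMDM change of Acta2 (-0.17), Atf4 (-0.35), Ccl2 (-0.29), Ccn2 (-0.19), Cd53 (-0.23), Col12a1 (-0.33), Col1a1 (-0.42), Col1a2 (-0.37), Cxcl12 (-0.11), Fmod (-0.25), Igfbp7 (-0.46), Nqo1 (-0.43), Nusap1 (-0.42), Tagln (-0.0282), Thbs2 (-0.23), Ube2c (-0.37) and Wdr43 (-0.15), and for the difference of Csf1 (0.29), Fcgrt (0.18), Gclm (0.45), Mmp10 (0.58), Tk1 (0.0896) and Tnfaip2 (0.29). With quantile normalization they turned for the BMSC change of Mt2 (-0.0756) and Nfkbia (0.016), the BMDM change of Fmod (-0.25), Hspa5 (0.17), Nqo1 (-0.24), Nusap1 (-0.41) and Ube2c (-0.20), and the difference of Ccl2 (-0.23), Fcgrt (0.0871), Mmp10 (0.74) and Tk1 (0.17). The cause of these turns was not tested beyond the shift of the medians.

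Small changes also hung on single libraries by limma. The BMSC change of Casp6 (adjusted p = 0.109 without Aged replicate 1), Hspa1a (0.0783 without Aged_NZM replicate 1), Tk1 (0.161 without Aged_NZM replicate 1) and Nfkbiz (0.0549 without Aged replicate 3) and the BMDM change of Col1a2 (0.0663 without LPS replicate 1), Mki67 (0.178 without LPS replicate 2) and Ube2c (0.102 without LPS replicate 2) no longer passed, nor did the difference of Gas6 (0.0741 without LPS replicate 3). The BMDM change of Cdkn2a passed without LPS_NZM replicate 3 (-0.29, adjusted p = 0.00679), and the difference of Irf9 without Aged replicate 1 (0.14, adjusted p = 0.0295). In the fit of all 15 libraries the BMSC changes of Cxcl1 (adjusted p = 0.308), Nfkbiz (0.0538) and Hspa1a (0.0541) did not pass.

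Replicate numbers recur across groups but the labels do not say that they pair samples. Deviations of same-numbered libraries correlated at 0.1, 0.003 and -0.07 in BMSC and 0.143, 0.014 and -0.066 in BMDM, so they were not taken as paired. With the replicate block 8027 genes had a different response, 6933 changed in BMSC and 8085 in BMDM, and the sets held 35, 22, 32 and 146 genes. By limma the BMSC change of Casp6 (adjusted p = 0.0865) then no longer passed. Nor did the BMDM changes of Mki67 (0.0638) and Ube2c (0.0555) and the difference of Gas6 (0.0791).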
